A study of Mus musculus with 20 samples.

Results

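The comparison set young mouse epidermis that had lost Wwox alone directly against young epidermis that had lost p53 alone. It rests on 6 of the 20 samples of the series, 3 of each genotype, chosen by their labels, and every gene of the count table entered the test. The Wwox group, called WKO, came from K14cre;Wwoxfl/fl mice, and the p53 group, called PKO, from K14cre;p53fl/fl mice. All were 100 to 120 days old, and all cells had been sorted for the tdTomato reporter from dissociated epidermis. K14cre places Cre recombinase under a keratin 14 promoter, which is active in basal keratinocytes, so deletion is limited to that lineage and its progeny. Wild-type (WT) and double-knockout (DKO, K14cre;Wwoxfl/fl;p53fl/fl) young epidermis, 3 libraries each, shared the fit. The labels of WT name tdTomato-positive cells but give no Cre driver. Each library held RNA of 1 biological replicate by its title, and the sources used here do not give whether animals were pooled. The labels also give neither the sex of the mice nor their strain.

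p53, encoded by Trp53, is a transcription factor that is stabilised by DNA damage and other stress and switches on genes for cell cycle arrest, DNA repair, metabolism and cell death. WWOX is a WW domain oxidoreductase that binds proteins with PPxY motifs, among them p73, AP-2 gamma, Dishevelled and components of the Hippo pathway, and is encoded across a common fragile site. Both are tumour suppressors, and in skin p53 limits squamous carcinoma. The direct comparison asks how the 2 single losses differ in young skin, in a series whose title concerns squamous carcinoma and the epithelial to mesenchymal transition (EMT).

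Levels are in CPM, the usual per-library scale of counts with the scaling factors of the fit applied, listed in the order of libraries 1, 2 and 3 of a group, and fold changes are on the log2 scale as WKO minus PKO. The 6 libraries held 11930153 to 15182485 counts each. Wwox stood at 1.33, 0.143 and 1.21 CPM in WKO and 9.34, 8.51 and 8.04 CPM in PKO, beside 10.6, 9.72 and 9.15 CPM in WT. Every WKO library was below every PKO library (log2 fold change -3.26, SE 0.87), and PKO lay close to WT. Trp53 stood at 41.6, 50.7 and 41.1 CPM in WKO and 6.23, 22.7 and 20.2 CPM in PKO, beside 32.5, 34.2 and 41.9 CPM in WT (log2 fold change 1.44, SE 0.67). PKO 1 was low, whereas PKO 2 and PKO 3 held 62.8% and 55.8% of the mean WT level, so the loss of Trp53 RNA was partial in 2 of the 3 libraries labelled p53fl/fl. The sources used here give neither the deleted exons nor the share of cells that recombined, and RNA outside the deleted part would still be counted. The library labelled DKO 3 carried 7.61 CPM of Wwox and 21.9 CPM of Trp53, against its label. It enters the fit through the shared spread and the filter on low counts, its values are given below for Rpl26, and without it the calls were again 0 higher and 1 lower, of 17305 genes.

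**Figure D1:**
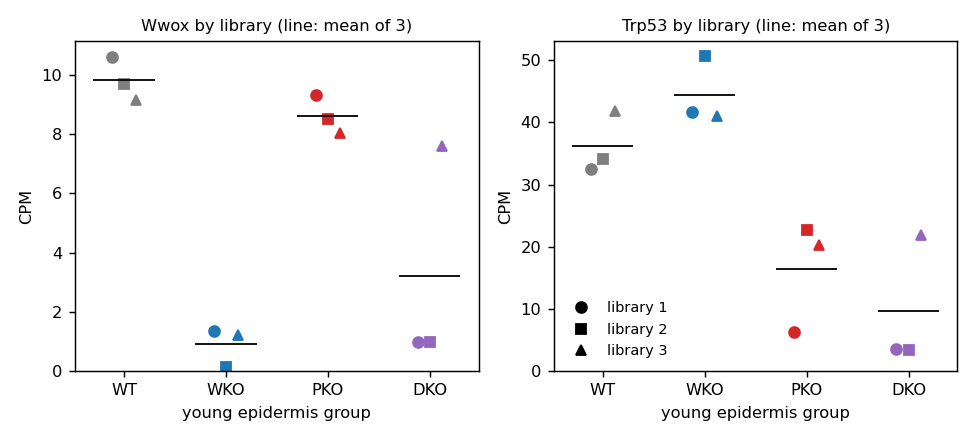
CPM of Wwox (left) and Trp53 (right) in each of the 12 young libraries, with symbols for libraries 1, 2 and 3 of a group and a line at the mean of 3. Wwox sat at or below 1.33 CPM in WKO, and Trp53 sat at 6.23 CPM in PKO 1 but at 22.7 and 20.2 CPM in PKO 2 and 3.

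Keratinocyte genes were present in all 6 libraries, with PKO 3 apart from the rest. The 20 basal keratinocyte genes summed to 15673, 24875 and 23994 CPM in WKO and 19502, 18244 and 4454 CPM in PKO, so that PKO 3 lay near the 4142, 3678 and 4736 CPM of WT. Krt5, a keratin of the basal layer, stood at 3025, 6527 and 4833 CPM in WKO and 4748, 4193 and 931 CPM in PKO. Krt10, a keratin of the suprabasal layers, stood at 5755, 4367 and 5640.1 CPM in WKO and 1658, 7277 and 631 CPM in PKO, again lowest in PKO 3. T and NK cell markers, which in mouse epidermis include those of dendritic epidermal T cells, summed to 1369, 123 and 73.5 CPM in WKO and 1066, 364 and 5187 CPM in PKO, and PKO 3 was the highest of the 6 for all 27 members tested. None of the 28 was at 0 in all PKO libraries, and 2 (Gzma and Ncr1) were at 0 in all WKO libraries. Langerhans and dendritic cell markers summed to 2772, 528 and 379 CPM in WKO and 509.9, 762 and 1877 CPM in PKO, with WKO 1 highest. Fibroblast markers reached 2808, 439 and 531 CPM in WKO and 691, 3989.7 and 3688 CPM in PKO, low in WKO 2, WKO 3 and PKO 1. The part of these markers in the differences below was not tested beyond fits without single libraries and with T cell marker level as a covariate. In sorted bulk RNA, fewer cells of a type and less RNA per cell cannot be told apart. All 6 libraries carried Xist, at 338.8 to 922 CPM, with Y-linked RNA near 0. WT 1 did not, with Xist at 0.231 CPM and the Y-linked Ddx3y at 50.8 CPM. Interferon-stimulated genes summed to 2573, 381 and 225 CPM in WT, and erythrocyte markers to 1275, 3725 and 892 CPM. WT levels given below therefore differ from the 6 libraries in more than genotype.

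**Figure D2:**
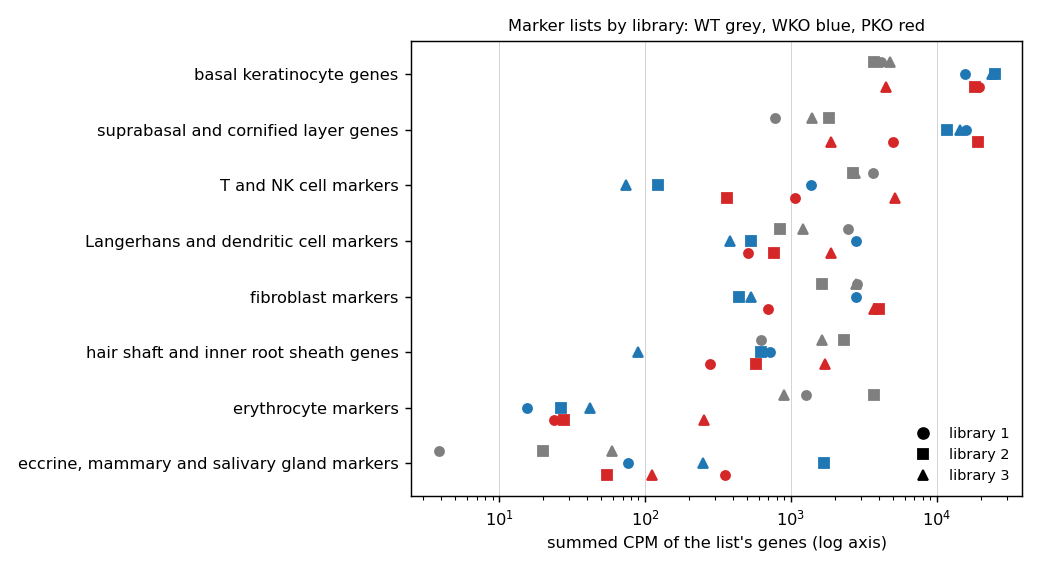
Summed CPM of 8 marker and lineage lists (log axis) in each WT (grey), WKO (blue) and PKO (red) library. PKO 3 (red triangle) sat with WT for basal keratinocyte genes and above all others for T and NK cell markers, at 5187 CPM.

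Libraries of one genotype were not set clearly apart from those of the other. Correlations of log2 CPM across genes ran from 0.921 to 0.962 between WKO libraries, from 0.875 to 0.904 between PKO libraries and from 0.830 to 0.936 between genotypes. The median SD of a gene within a group was 0.272 log2 units in WKO and 0.465 in PKO. Few genes passed the test. Of 16627 genes tested with edgeR's quasi-likelihood test at a Benjamini-Hochberg adjusted p under 0.05, 0 (0%) were called higher in WKO and 1 (0.00601%), Rpl26, was called lower. The next smallest adjusted p was 0.697, which 1872 genes shared. At an unadjusted p under 0.05 there were 490 genes higher (2.95%) and 679 lower (4.08%). All 3 WKO libraries lay above all 3 PKO libraries for 1086 genes (6.53%) and below them for 834 (5.02%). The median log2 fold change of all genes was -0.01, and the median SE was 0.35. DESeq2 called 24 higher (0.158%) and 39 lower (0.256%) among 15227 genes with an adjusted p, and limma voom with quality weights called 0 and 1. For the gene lists below, called means by edgeR, and the list members that DESeq2 called were Sesn1, Wwox, F3, Nr4a2, Nr4a3, Hspa5 and H2-Eb1.

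Rpl26 encodes a protein of the large ribosomal subunit that is also known to bind Trp53 mRNA. It lies outside the rule by which genes were picked for description, and it is named because its value was seen to be the single call. Rpl26 stood at 51.1, 61.7 and 57.3 CPM in WKO and 811, 491 and 616 CPM in PKO, beside 30.3, 32.6 and 40.8 CPM in WT. The groups did not overlap, and the mean was 56.7 ± 5.32 CPM (SD, n = 3) in WKO and 639.6 ± 161 CPM (n = 3) in PKO. In edgeR the log2 fold change was -3.50 (SE 0.26, adjusted p = 0.000939). The gene has a near-identical copy elsewhere in the genome, the processed pseudogene Gm15772. In the GENCODE M21 transcripts, Rpl26 on chromosome 11 and Gm15772 on chromosome 5 differ at 2 of the 438 bases of the coding sequence, an identity of 99.5%. Both differences, C177T and T288C, counted from the A of the start codon with the Rpl26 base first, fall on the third base of a codon, codons 59 and 96. The stretch from base 168 to base 297 holds both, and is shown because those bases, in capitals, are all that tells a coding read of one from the other.
Rpl26: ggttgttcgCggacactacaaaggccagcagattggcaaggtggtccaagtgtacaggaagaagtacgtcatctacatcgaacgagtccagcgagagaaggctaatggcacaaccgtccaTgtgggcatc
Gm15772: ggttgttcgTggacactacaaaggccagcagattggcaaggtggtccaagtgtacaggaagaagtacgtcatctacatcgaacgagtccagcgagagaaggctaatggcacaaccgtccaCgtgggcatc
These transcripts are of the GRCm38 annotation, whereas the submitters' processing notes name mm39.

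Counts assigned to the copy mirrored those of the gene. Gm15772 stood at 755, 819 and 745 CPM in WKO and 1.04, 451 and 0.402 CPM in PKO, beside 342, 439.6 and 455 CPM in WT. Of the counts given to the pair, Rpl26 took 6.34, 7.01 and 7.14% in WKO and 99.9, 52.1 and 99.9% in PKO. WKO thus resembled WT, where the share was 6.90% to 8.23%, and PKO 1 and 3 resembled DKO 1 and 2, where it was 99.9% and 99.7%. PKO 2, at a near-equal split, resembled the library labelled DKO 3, at 56.5%. The sum of the pair was 806, 880.2 and 802 CPM in WKO and 812, 943 and 616 CPM in PKO, and the groups overlapped. With both counts added before the fit, an alternative chosen after the data were seen, the log2 fold change was 0.07 and no gene was called in either direction (edgeR adjusted p = 0.948 for the pair). The assignment of counts between the 2 near-identical sequences separated the groups, and the summed level did not. On chromosome 11, 29 tested genes lie between Rpl26 and Trp53 in the GRCm38 gene order. Of these, 5 had an unadjusted p under 0.05 in edgeR, beside 7.05% of all tested genes with a place in that order.

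**Figure D3:**
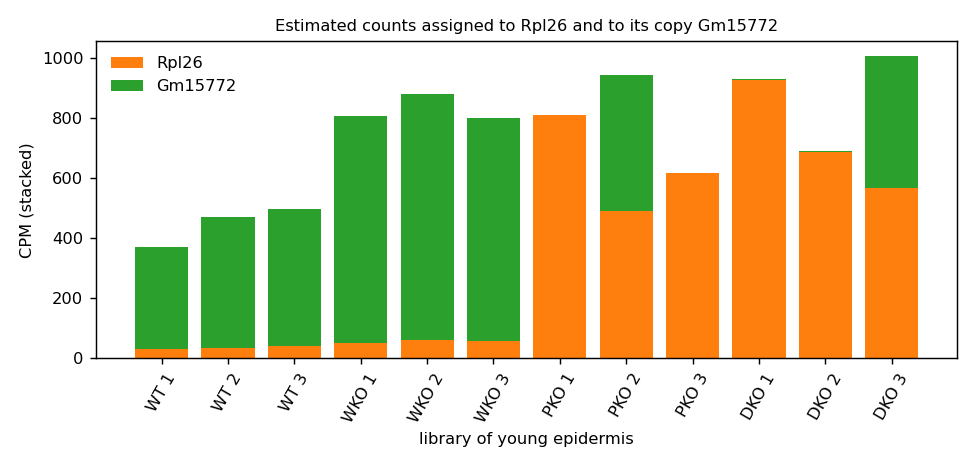
Stacked CPM assigned to Rpl26 (orange) and to its copy Gm15772 (green) in each of the 12 young libraries. Gm15772 takes most of the counts in WT and WKO, Rpl26 takes nearly all in PKO 1, PKO 3, DKO 1 and DKO 2, and PKO 2 and DKO 3 hold both.

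Rps18, another ribosomal protein gene, showed the same kind of exchange with a copy, and pseudogenes of Rps13 and Rps23 also separated the groups. edgeR called none of those named here, and DESeq2 called Rps18, Rps13-ps1 and Rps23-ps1, of which Rps13-ps1 was also called by edgeR with no filter on low counts. Rps18, of the small subunit, stood at 554, 361 and 529 CPM in WKO and 49.5, 72.2 and 42.1 CPM in PKO. Its copy Gm10260 stood at 6.18, 191 and 9.59 CPM in WKO and 312, 392 and 228 CPM in PKO. Counts summed over the 16 genes at least 90% identical to Rps18 over 200 bases or more were 566, 606 and 547 CPM in WKO and 444, 577 and 339.8 CPM in PKO, so that a separated gene became an overlapping family. The pseudogene Rps13-ps1 stood at 19.8, 38.7 and 37.6 CPM in WKO and 0, 0 and 0 CPM in PKO, while its parent gene Rps13 stood at 170.4, 171 and 150.5 CPM in WKO and 144, 213 and 157 CPM in PKO. The reverse held for Rps23-ps1, listed at 0 in all WKO libraries and at 75.7, 77.9 and 11.7 CPM in PKO. Its parent gene Rps23 stood at 1075, 1141 and 1036 CPM in WKO and 753, 1090 and 804 CPM in PKO. For both parent genes, Rps13 and Rps23, the groups overlapped. Levels of single ribosomal protein genes and their pseudogenes are therefore uncertain in these estimated counts. The genes of the 2 pairs and of this paragraph, and Krt5, Krt10, Fos, Cd74 and Csn2, were named after their values were seen.

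p53 target genes are the readout closest to the PKO genotype, and as a list they had a median near 0. Of 46 targets listed, 44 passed the filter on low counts and 0 were called in either direction by edgeR, with a median log2 fold change of 0.07 beside -0.01 for all genes. At an unadjusted p under 0.05 there were 6 higher in WKO and 1 lower, and 7 lay wholly above PKO and 1 wholly below, against the shares of all genes given above. Sesn1, which encodes a stress-induced inhibitor of mTORC1 signalling, stood at 59.8, 44.5 and 94.0 CPM in WKO and 28.2, 26.5 and 26.8 CPM in PKO, beside 25.0, 25.9 and 29.7 CPM in WT. PKO lay at the WT level and WKO above it (log2 fold change 1.281, SE 0.25). Xpc, the damage sensor of global nucleotide excision repair, stood at 47.3, 61.2 and 56.0 CPM in WKO and 40.3, 37.4 and 36.3 CPM in PKO (log2 fold change 0.53, SE 0.13). Its PKO values were again those of WT, at 39.5, 37.4 and 36.1 CPM. Trp53inp1, a stress-induced regulator of autophagy and cell death, stood at 114, 83.8 and 161 CPM in WKO and 50.001, 64.5 and 72.4 CPM in PKO, beside 87.0, 83.9 and 91.0 CPM in WT (log2 fold change 0.94, SE 0.29). Here WKO 2 lay at the WT level, and all 3 PKO libraries lay below it. Plk3, a polo-like kinase of the stress response, was the target on the other side, at 16.5, 7.79 and 7.10 CPM in WKO and 19.7, 26.1 and 31.9 CPM in PKO (log2 fold change -1.31, SE 0.40).

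Among the targets most often used to read p53 activity, Cdkn1a and Mdm2 overlapped between the groups. Cdkn1a, which encodes the cell cycle inhibitor p21, stood at 139.7, 90.8 and 125 CPM in WKO and 77.04, 252 and 55.2 CPM in PKO (log2 fold change -0.11, SE 0.46). PKO 2 was the highest of the 6 and PKO 1 and 3 the lowest. Mdm2, the ubiquitin ligase that degrades p53, stood at 41.8, 42.3 and 46.5 CPM in WKO and 30.6, 86.0 and 41.0 CPM in PKO, and PKO 2 was again highest. Ccng1 (cyclin G1) stood at 70.5, 66.9 and 77.01 CPM in WKO and 39.0, 58.2 and 51.7 CPM in PKO and did not overlap, with WKO above. Aen, an apoptosis-enhancing nuclease, stood at 22.9, 25.5 and 20.2 CPM in WKO and 13.4, 18.8 and 17.1 CPM in PKO, also with WKO above. PKO 1, the library with the least Trp53 RNA, set alone against the 3 WKO libraries gave a median of 0.30 over 46 targets, beside 0.07 for all genes, with 6 higher and 2 lower at an unadjusted p under 0.05 where all genes gave 6.28% and 3.51%. That fit takes the spread of PKO 1 from the other groups. These genes, Cdkn1a, Mdm2, Ccng1 and Aen, were picked after their values were seen.

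**Figure D4:**
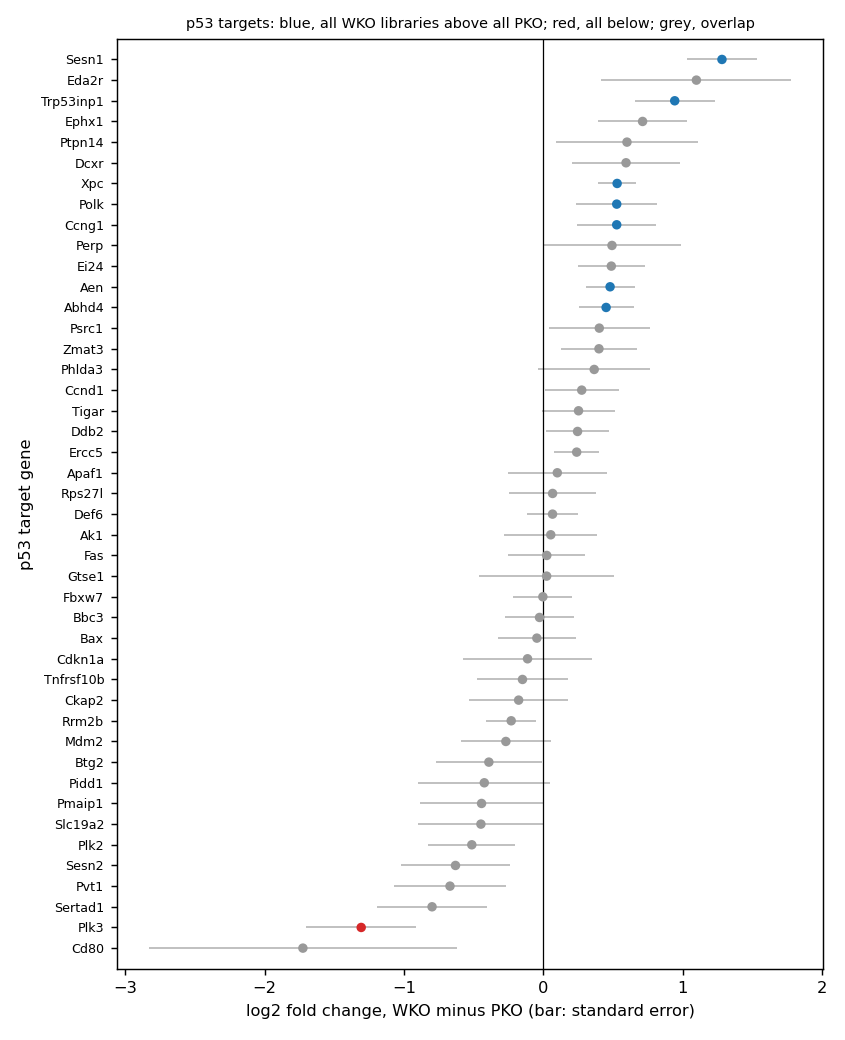
Log2 fold change (WKO minus PKO) of the 44 p53 target genes tested, with the SE from the edgeR fit as bars. Blue marks the 7 genes with all WKO libraries above all PKO libraries and red the 1 gene below, and none passed an adjusted p of 0.05.

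Partners and relatives of the 2 deleted proteins were also near 0. The p53 family and its regulators had 0 of 14 called and a median of 0.20. Trp63, the master regulator of stratified epithelium, stood at 514, 567 and 716 CPM in WKO and 475, 497 and 154 CPM in PKO, beside 66.7, 164 and 199 CPM in WT. The groups did not overlap, and PKO 3 was the lowest (log2 fold change 0.68, SE 0.46). Without PKO 3 the median of the list was -0.04. Wwox and its partners had 0 of 15 called by edgeR and 1, Wwox itself, by DESeq2 (log2 fold change -3.31, adjusted p = 0.0233). The list had a median of -0.05, and Wwox was the only member whose groups did not overlap. Runx2, an osteogenic transcription factor that WWOX binds, stood at 13.3, 5.01 and 3.85 CPM in WKO and 13.2, 6.49 and 37.7 CPM in PKO. Its groups overlapped, and PKO 3 was highest.

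Beyond the deleted genes, the rule named the 5 genes with the smallest p in each direction among those with no overlap and a mean of 5 CPM or more in the group that held more. They were chosen on this contrast, so their values are a description, and each had an adjusted p of 0.697 in edgeR. Higher in WKO were 2 neighbouring serine protease inhibitors of the Serpina3 family. Serpina3i stood at 47.1, 42.0 and 54.5 CPM in WKO and 6.36, 8.24 and 5.43 CPM in PKO, beside 0.808, 1.0005 and 2.36 CPM in WT (log2 fold change 2.85, SE 0.50). Serpina3h stood at 107, 111 and 139 CPM in WKO and 21.1, 35.3 and 17.7 CPM in PKO, beside 2.60, 3.07 and 9.56 CPM in WT (log2 fold change 2.27, SE 0.49). For both genes the PKO libraries lay between WT and WKO. The mouse Serpina3 cluster holds many similar copies, so the assignment of counts among them is uncertain. Sesn1, described above, was also named. Gdpd3, a lysophospholipase D, stood at 6.95, 12.3 and 8.15 CPM in WKO and 0.454, 2.28 and 1.11 CPM in PKO, with WT at 1.62, 1.501 and 0.649 CPM. Map9, a spindle-associated microtubule protein, stood at 7.51, 7.65 and 5.29 CPM in WKO and 2.01, 2.98 and 2.21 CPM in PKO, with WT at 2.14, 2.43 and 2.01 CPM. For Gdpd3 and Map9, PKO lay near WT and WKO above both.

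Lower in WKO was Rassf1, a Ras-association scaffold of the Hippo pathway, at 21.7, 21.0 and 16.9 CPM in WKO and 37.7, 38.8 and 43.2 CPM in PKO (log2 fold change -1.01, SE 0.20). WT stood at 35.7, 22.8 and 21.6 CPM, WT 1 near PKO and the other two near WKO. Suco, an endoplasmic reticulum protein, stood at 30.5, 25.1 and 29.3 CPM in WKO and 47.1, 60.8 and 51.7 CPM in PKO, with WT at 63.3, 50.2 and 39.7 CPM, near PKO. Alpk2, an atypical kinase, stood at 2.81, 3.72 and 3.17 CPM in WKO and 6.94, 18.6 and 10.4 CPM in PKO, with WT at 9.06, 7.36 and 10.9 CPM, also near PKO. Vps37b, a subunit of the ESCRT-I sorting complex, differed in the other arm, since WKO, at 29.2, 22.2 and 18.3 CPM, lay near WT, at 28.6, 18.01 and 14.9 CPM, and PKO stood at 44.2, 67.6 and 60.8 CPM. Smn1, of the complex that assembles spliceosomal particles, stood at 12.9, 10.9 and 11.6 CPM in WKO and 30.7, 18.6 and 21.8 CPM in PKO, with WT between them at 16.05, 16.2 and 14.4 CPM. DESeq2 called all 10 of these genes, and edgeR on the 6 libraries alone called Serpina3i.

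**Figure D5:**
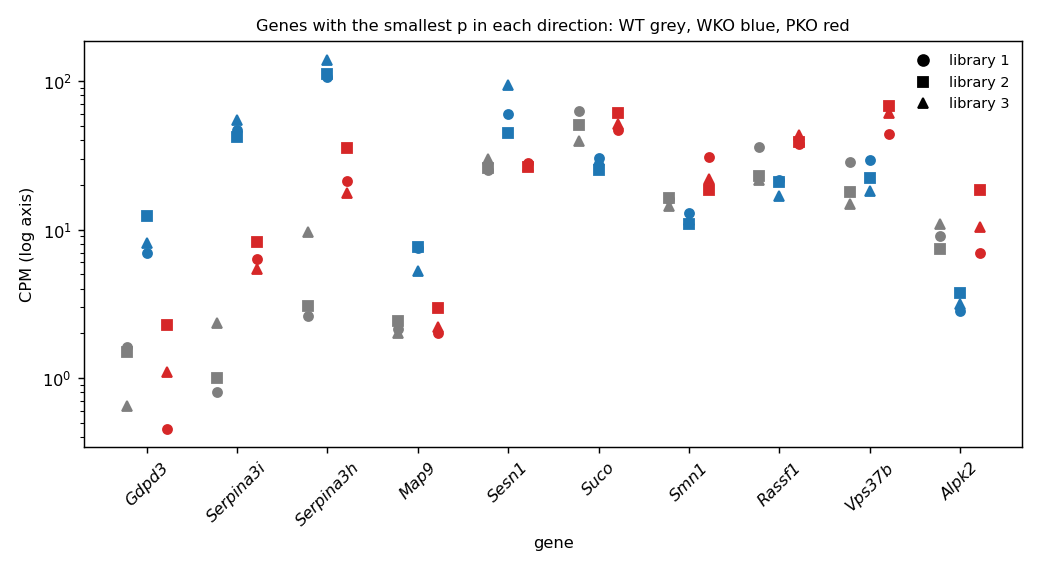
CPM (log axis) of the 10 genes named by the rule, 5 in each direction, in each WT (grey), WKO (blue) and PKO (red) library. They had the smallest p among genes with no overlap and a sufficient mean level, outside the gene classes that the rule left out. Serpina3i and Serpina3h step up from WT through PKO to WKO, and Gdpd3, Map9 and Sesn1 stand higher in WKO than in WT or PKO.

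The basal and suprabasal lists had positive medians that shrank or turned without PKO 3. Basal keratinocyte genes had 0 of 20 called, 17 of 20 positive and a median of 0.36, which was 0.05 without PKO 3. Dst, the hemidesmosome linker dystonin, stood at 2253, 2727 and 4748 CPM in WKO and 2213, 1915 and 395 CPM in PKO. The groups did not overlap, but PKO 1 lay just under WKO 1 (log2 fold change 1.10, SE 0.53). Krt15, a keratin of basal and bulge cells, stood at 3992, 4453 and 5479.6 CPM in WKO and 2862, 3942 and 645 CPM in PKO, with PKO 3 far below the rest. Suprabasal and cornified layer genes had 0 of 29 called and a median of 0.34, and PKO 2 was the highest of the 6 for 24 of them. Without PKO 2 the median was 1.55 and without PKO 3 it was -0.15. Tgm3, the transglutaminase of the cornified envelope and hair, stood at 20.9, 31.0 and 28.6 CPM in WKO and 14.3, 15.1 and 12.3 CPM in PKO, and did not overlap (log2 fold change 0.95, SE 0.37). Wound and stress keratinocyte genes had a median of -0.42, with 0 of 22 called. It was -0.71 without PKO 3 and 0.61 against PKO 1 alone. Sprr1a, a cornified envelope precursor induced by wounding, stood at 20.5, 34.5 and 25.1 CPM in WKO and 61.1, 259 and 14.5 CPM in PKO. Krt16, a keratin of wounded epidermis, stood at 12.2, 49.7 and 12.2 CPM in WKO and 40.1, 191 and 6.13 CPM in PKO. For both, PKO 2 was the highest of the 6 and PKO 3 the lowest.

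Appendage genes split by list. Hair shaft and inner root sheath genes had 0 of 24 called, 21 of 24 negative and a median of -1.22. PKO 3 was the highest for 17 of the 24, and without it the median was -0.19. Krt75, a companion layer keratin, stood at 5.20, 9.58 and 1.66 CPM in WKO and 14.9, 11.4 and 29.5 CPM in PKO, beside 14.5, 49.95 and 59.95 CPM in WT. Lef1, a Wnt effector of the hair matrix, stood at 16.4, 6.72 and 2.04 CPM in WKO and 14.3, 8.07 and 52.4 CPM in PKO, with PKO 3 highest. Sebaceous gland genes went the other way, with 17 of 21 positive, a median of 0.65, and 4 higher and 1 lower at an unadjusted p under 0.05. Over all genes tested, 2.95% were higher and 4.08% lower at that threshold. Fasn, fatty acid synthase, stood at 240.4, 349 and 265 CPM in WKO and 205, 172 and 200.1 CPM in PKO, beside 149, 171 and 164 CPM in WT, and did not overlap (log2 fold change 0.56, SE 0.18). PKO lay slightly above WT and WKO higher still. Dgat2, which makes triglycerides, stood at 60.1, 33.8 and 57.5 CPM in WKO and 22.9, 38.4 and 13.9 CPM in PKO. Prdm1, a regulator of sebaceous progenitors that is also expressed in suprabasal cells and lymphocytes, stood at 5.48, 2.002 and 1.13 CPM in WKO and 2.72, 24.4 and 10.7 CPM in PKO. The sebaceous median stayed above 0 under all 22 alternatives, from 0.29 to 0.99. WKO 2 was the highest for 10 of 21 members. For cholesterol synthesis, 17 of 21 genes were positive, the median was 0.35 and WKO 2 was highest for 13. Fdft1, squalene synthase, stood at 52.9, 87.7 and 61.3 CPM in WKO and 45.8, 48.5 and 34.9 CPM in PKO (log2 fold change 0.64, SE 0.25). Barrier lipid genes had a median of 0.27.

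Immediate early genes were mostly negative, with no edgeR call. The immediate early list had 0 of 27 called in edgeR, 23 of 27 negative and a median of -0.38, with 6 lower at an unadjusted p under 0.05. The share of all genes lower at that threshold was 4.08%. Nr4a3, an orphan nuclear receptor induced by many stimuli, stood at 69.2, 16.7 and 17.9 CPM in WKO and 132, 119 and 164 CPM in PKO, and did not overlap (log2 fold change -1.995, SE 0.55). WT lay at 59.2, 40.3 and 18.3 CPM, across the WKO range. Nr4a2, its relative, stood at 7.79, 5.22 and 4.15 CPM in WKO and 13.9, 19.4 and 28.1 CPM in PKO (log2 fold change -1.84, SE 0.47). Maff, a small Maf factor, stood at 34.5, 15.8 and 23.4 CPM in WKO and 43.9, 61.7 and 51.2 CPM in PKO, with all PKO libraries above. DESeq2 called Nr4a2 and Nr4a3. Fos, an AP-1 subunit, stood at 2634, 1258 and 1869 CPM in WKO and 1475, 1892 and 1661 CPM in PKO and overlapped, with WKO 1 highest. WKO 1 and PKO 3, the 2 libraries richest in T cell markers in their groups, were left out together after the data were seen. The list's median was then -0.65, and 0 of its 27 members were positive. In that fit 11 were lower and 0 higher at an unadjusted p under 0.05, where all genes gave 5.06% lower and 2.22% higher. Under the alternatives the list's median ran from -0.70 to -0.17.

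Heat shock chaperones had 0 of 18 called by edgeR and a median of -0.07. Hspa5, the chaperone BiP of the endoplasmic reticulum, stood at 332, 259.8 and 206 CPM in WKO and 416, 477 and 516 CPM in PKO, beside 362, 305 and 291 CPM in WT (log2 fold change -0.82, SE 0.21). The groups did not overlap. Dnaja1, a cytosolic co-chaperone, stood at 119, 115 and 78.7 CPM in WKO and 166, 132 and 221 CPM in PKO (log2 fold change -0.73, SE 0.22), with PKO above. YAP/TAZ and target genes had 0 of 23 called by edgeR and a median of 0.06. Gadd45a, a growth arrest gene also known as a p53 target, stood at 5.34, 7.58 and 5.44 CPM in WKO and 12.1, 15.96 and 17.9 CPM in PKO (log2 fold change -1.32, SE 0.34). F3, tissue factor, stood at 3.58, 2.57 and 5.06 CPM in WKO and 9.99, 54.2 and 6.18 CPM in PKO, highest in PKO 2. TGF-beta pathway genes had 16 of 24 negative, a median of -0.44, and 5 lower and 1 higher at an unadjusted p under 0.05. Over all genes tested, 4.08% were lower and 2.95% higher at that threshold. Tgfbr1, the type I receptor, stood at 20.9, 17.7 and 17.21 CPM in WKO and 26.1, 23.9 and 39.5 CPM in PKO, and Skil, a repressor of Smad signalling, at 49.9, 29.9 and 43.1 CPM in WKO and 79.0, 94.2 and 59.1 CPM in PKO. Neither gene overlapped, and for Tgfbr1 all 6 libraries were below WT, at 63.4, 54.3 and 47.9 CPM. With T cell marker level as a covariate the median of the TGF-beta list was -0.08. That median was -0.65 without WKO 1, -0.59 without PKO 1, -0.25 without PKO 3 and -0.48 without both WKO 1 and PKO 3. Among EGF receptor genes and feedback regulators, with a median of 0.09, Dusp6, an ERK phosphatase, stood at 37.4, 29.0 and 20.2 CPM in WKO and 46.7, 50.7 and 54.9 CPM in PKO (log2 fold change -0.82, SE 0.26). Notch and Wnt lists had medians of 0.13 and -0.11, with 0 called.

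No gene of the EMT lists, the subject of the series title, was called, where Rpl26 was the only call among all genes. Of 9 EMT transcription factors tested, 0 were called, 0 were separated and 8 were negative, with a median of -0.81. Of all 16627 genes tested, 6.53% lay wholly above PKO and 5.02% wholly below, so 0 separated among 9 is near that share. Zeb1, a repressor of E-cadherin, stood at 20.9, 3.07 and 2.79 CPM in WKO and 6.36, 13.4 and 50.3 CPM in PKO, beside 50.5, 39.4 and 38.0 CPM in WT. WKO 1 and PKO 3, the libraries with most T cell markers, were the highest of their groups. Snai2, a factor of basal keratinocytes and EMT, stood at 19.5, 31.7 and 34.2 CPM in WKO and 28.9, 15.8 and 11.8 CPM in PKO and overlapped. Mesenchymal genes of EMT had 0 of 30 called, 27 of 30 negative and a median of -0.81. Timp3, a matrix-bound metalloproteinase inhibitor, stood at 85.5, 73.9 and 49.5 CPM in WKO and 129, 97.3 and 202 CPM in PKO (log2 fold change -1.04, SE 0.35). PKO 3 was highest. S100a4 stood at 52.7, 7.01 and 5.06 CPM in WKO and 35.5, 17.5 and 180.1 CPM in PKO, with PKO 3 and WKO 1 again highest in their groups. Fibroblast markers had a median of -1.28 and 21 of 21 negative. Against PKO 1 alone the medians were 0.23 for the factors, 0.09 for mesenchymal genes and 1.63 for fibroblast markers, each with the opposite sign. Epithelial junction and identity genes had 0 of 40 called and a median of 0.23. Dsc2, the desmosomal cadherin desmocollin 2, stood at 2.95, 27.4 and 32.2 CPM in WKO and 3.18, 4.56 and 2.92 CPM in PKO. Of these 6 libraries it was high in WKO 2 and WKO 3 alone, and DKO 1 and DKO 2 held 24.4 and 32.5 CPM. Cldn4, a tight junction protein, stood at 45.9, 21.9 and 37.4 CPM in WKO and 59.5, 355 and 15.4 CPM in PKO, highest in PKO 2.

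Immune genes had wide list medians and a wide spread between libraries. T and NK cell markers had 0 of 27 called by edgeR, all 27 negative and a median of -2.13. Without PKO 3 the median was -0.36. Interferon-stimulated genes had 0 of 32 called, 31 of 32 negative and a median of -0.94, and 12 lay wholly below PKO. Of all genes tested, 5.02% lay wholly below PKO. Gbp3, a guanylate binding protein, stood at 3.16, 2.43 and 1.36 CPM in WKO and 4.41, 3.68 and 16.6 CPM in PKO. Ifit1, an antiviral effector, stood at 0.351, 3.575 and 0.227 CPM in WKO and 6.16, 3.596 and 10.9 CPM in PKO. Some of these separations were narrow and at low levels. For Ifit1, WKO 2 lay just under PKO 2, and for Bst2, WKO 1 at 4.07 CPM lay just under PKO 2 at 4.12 CPM. PKO 3 was the highest for 20 of the 32, and without it the median was -0.61. Under the 22 alternatives it stayed below 0, from -1.40 to -0.52. MHC class I genes were uneven, with a median of -0.04. The classical H2-D1 stood at 709.9, 1272 and 798 CPM in WKO and 1714, 1789.9 and 2061 CPM in PKO and H2-Q4, a class Ib gene, at 73.2, 179.6 and 104 CPM in WKO and 274, 268 and 279 CPM in PKO, both with PKO above. The reverse held for H2-Q7, another class Ib gene, at 111, 155 and 206 CPM in WKO and 74.6, 93.4 and 84.3 CPM in PKO, and for H2-T23, which encodes Qa-1, at 74.6, 86.1 and 88.3 CPM in WKO and 45.1, 57.5 and 49.7 CPM in PKO. These genes are close relatives, so reads can be counted for one in place of another.

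H2-Eb1, a class II chain of Langerhans and dendritic cells, stood at 315, 22.0 and 29.9 CPM in WKO and 0.0649, 2.37 and 3.37 CPM in PKO, beside 4.39, 0.929 and 2.60 CPM in WT (log2 fold change 5.96, SE 1.46). Its class II partner gene H2-Ab1 stood at 653, 50.4 and 39.7 CPM in WKO and 27.2, 103 and 312 CPM in PKO and overlapped, as did Cd74, the invariant chain, at 1073, 118 and 77.3 CPM in WKO and 82.5, 261 and 876 CPM in PKO. H2-Eb1 was therefore near 0 in PKO 3, where H2-Ab1 and Cd74 were high, and in WT, where Cd74 stood at 1167, 358 and 562 CPM. Ccl27a, a keratinocyte chemokine that draws skin-homing T cells, stood at 43.7, 45.9 and 97.7 CPM in WKO and 14.5, 21.3 and 17.0 CPM in PKO, beside 0.808, 1.64 and 3.01 CPM in WT (log2 fold change 1.83, SE 0.63). It was higher in every WKO library than in any PKO library. Erythrocyte markers summed to 15.4, 26.4 and 42.1 CPM in WKO and 23.8, 28.0 and 251 CPM in PKO, with PKO 3 highest. Casein genes, part of the gland marker list, were high in WKO 2, where Csn2 stood at 572 CPM, against at most 17.1 CPM in the other 5.

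Metabolism, cell cycle and repair lists lay near 0. Nuclear oxidative phosphorylation genes had 29 of 34 positive at a median of only 0.09, with WKO 2 the highest for 26. Among glycolysis and hypoxia genes, with a median of -0.02, Ddit4, the mTORC1 inhibitor REDD1, stood at 49.1, 41.5 and 90.4 CPM in WKO and 22.3, 29.2 and 29.0 CPM in PKO, beside 35.3, 30.9 and 44.6 CPM in WT (log2 fold change 1.17, SE 0.28). Its groups did not overlap, with WKO above. Hk2, hexokinase 2, stood at 36.0, 31.1 and 25.1 CPM in WKO and 59.1, 73.1 and 46.2 CPM in PKO, with PKO above. NRF2 and glutathione genes had a median of -0.06, and Txnrd1, thioredoxin reductase 1, stood at 33.1, 39.3 and 23.6 CPM in WKO and 41.1, 52.0 and 57.8 CPM in PKO. Cell cycle genes had 0 of 40 called and a median of -0.08. Ccnb1, cyclin B1, stood at 5.48, 7.29 and 4.45 CPM in WKO and 16.9, 5.53 and 14.3 CPM in PKO and overlapped. PKO 3 was the highest for 26 of the 40. DNA repair and checkpoint genes had 0 of 30 called and a median of -0.00, although 3 were higher at an unadjusted p under 0.05. The share of all genes higher at that threshold was 2.95%. Wee1, the kinase that holds CDK1 inactive, stood at 53.2, 56.7 and 65.6 CPM in WKO and 32.6, 51.0 and 20.2 CPM in PKO (log2 fold change 0.76, SE 0.28). Rnf168, a ubiquitin ligase at double-strand breaks, stood at 33.6, 39.5 and 37.1 CPM in WKO and 27.0, 29.3 and 32.2 CPM in PKO (log2 fold change 0.32, SE 0.12). Circadian clock genes had a median of 0.06. Nfil3 stood at 40.3, 22.2 and 17.9 CPM in WKO and 55.1, 43.5 and 66.4 CPM in PKO and Tef at 142, 161 and 165 CPM in WKO and 127, 78.5 and 88.1 CPM in PKO, a pair of factors that bind the same sites with opposite effect, and they separated in opposite directions.

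The remaining lists had 0 members called by edgeR. Hair follicle stem and progenitor genes had 16 of 22 negative and a median of -0.22. Tcf7l1, a Wnt repressor of follicle stem cells, stood at 7.09, 8.01 and 5.74 CPM in WKO and 15.3, 9.30 and 15.1 CPM in PKO and lay wholly below PKO in WKO. Gata3, a regulator of the inner root sheath and of epidermal differentiation, stood at 399, 447 and 471 CPM in WKO and 305, 370.1 and 134 CPM in PKO, beside 72.4, 134 and 139 CPM in WT, and lay above PKO in WKO. PKO 3 was again the lowest of the 6 for Gata3, within the range of WT. In the Notch list, Numb, an inhibitor of Notch, stood at 31.7, 35.9 and 36.8 CPM in WKO and 31.1, 25.9 and 25.4 CPM in PKO, and Nrarp, a feedback inhibitor induced by Notch, at 48.2, 49.4 and 47.3 CPM in WKO and 37.8, 46.9 and 29.7 CPM in PKO, both with WKO above by a small margin. In the Wnt list, the ligand gene Wnt6 stood at 5.41, 5.79 and 5.44 CPM in WKO and 4.09, 3.16 and 3.22 CPM in PKO, also with WKO above. Sptlc2, a subunit of the enzyme that starts ceramide synthesis, stood at 33.4, 32.7 and 30.5 CPM in WKO and 41.0, 43.9 and 39.0 CPM in PKO, with PKO above. Squamous carcinoma genes had a median of 0.15, and Trp63, described above, lay wholly above PKO. Spp1 (osteopontin) in that list stood at 1.90, 22.3 and 2.42 CPM in WKO and 3.63, 0.439 and 4.32 CPM in PKO. Of these 6 libraries it was high in WKO 2 alone, and WT 1 held 59.6 CPM. Cytokine and chemokine genes had 18 of 24 negative and a median of -0.91, which was 0.10 against PKO 1 alone. Cxcl1, a neutrophil attractant, stood at 9.62, 6.94 and 3.85 CPM in WKO and 7.78, 49.0 and 17.4 CPM in PKO, highest in PKO 2. Among markers of other cells, medians were -0.02 for macrophages and neutrophils, -2.07 for B, mast and plasma cells, -0.63 for melanocytes and Schwann cells, -0.51 for vessels and -0.27 for muscle and fat. They were 0.07 for Langerhans and dendritic cells, -2.51 for erythrocytes, 0.08 for glands and 0.38 for sex-linked genes.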

How the data were processed

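Total RNA (5 ng per library, stranded low-input kit, per the labels' protocols) was sequenced from sorted tdTomato-positive cells. The authors deposited estimated counts as whole numbers in 1 table of 20 libraries and 51123 Ensembl genes, so that no rounding was needed. Build mm39, Salmon 0.13.1, Trim Galore 0.4.1, DESeq2 1.28.1 and FastQC 0.11.5 appear in the submitters' processing notes, without role or order. The sources used here do not say whether molecular identifiers were counted. Such estimates split reads among near-identical copies, which affects ribosomal protein genes, pseudogenes and gene families. Multiples of 10 made up all 37 values with 7 or more digits. Symbols came from GENCODE M21 (GRCm38) for 48246 identifiers, and that annotation gave transcript sequences by name and gene order. Its coordinates were not used with the counts. Identifiers without a symbol took 3.88% to 9.96% of counts and stayed in the tests.

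edgeR 4.0.16 (R 4.3.3) was run on the 12 young libraries in 4 groups with TMM scaling, filterByExpr and its quasi-likelihood test, adjusting p over 16627 genes by Benjamini and Hochberg with a threshold of 0.05. CPM are from that scaling. DESeq2 1.42.0, limma 3.58.1 and the other alternatives of the closing section were also run. Families of near-identical genes were found with BLAST+ 2.17.0. The members and gene lists were chosen with earlier results of these data known. Named genes were Wwox, Trp53, the 5 smallest p each way among genes with no overlap and a mean of 5 CPM or more in the group that held more, because fewer than 5 such genes were called, and up to 4 members of each of 42 lists with the smallest p and at least 5 CPM. The rule left out ribosomal protein, mitochondrial, small RNA and sex-linked genes, predicted genes, and genes of antigen receptors. Of 981 list entries, 9 had no identifier. The edgeR step was tested on simulated data.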

Additional observations from a re-analysis of the deposited data

How the results depend on the processing

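Across 22 alternatives the count of genes called higher in WKO was 0 in all but 4: it was 1 with the 6 libraries only, 2 with no filter on low counts, 24 with DESeq2 and 1 without PKO 2. The count called lower was 1 in all but 4: it was 2 with no filter, 39 with DESeq2, 2 without WKO 3 and 0 with Rpl26 and Gm15772 summed. Leaving out each library in turn gave 0 to 1 called higher and 1 to 2 lower. The added calls were Serpina3i (6 libraries, no filter), Rps13-ps1 and Gm43302 (no filter), 5830417I10Rik (without WKO 3) and Gm4737 (without PKO 2). Rpl26 was called under every alternative except the sum with its copy, where its log2 fold change turned to 0.0698; there the 2 counts form 1 gene by construction. For the 12 named genes, Rpl26 and Gm15772, 289 values kept direction and side of the threshold, 13 passed it where the main test did not and 1 reversed. Same-numbered WKO and PKO libraries did not deviate together (correlations -0.46, -0.03 and -0.43), whereas WKO 1 and PKO 3 did (0.56). With 3 libraries a group, such correlations cannot settle whether the numbers pair the libraries. A fit with the replicate number as a block called 0 higher and 1 lower. Of 42 list medians, 11 kept their sign under all alternatives (among them p53 target, sebaceous gland, cholesterol synthesis, interferon-stimulated, TGF-beta and immediate early genes) and 31 turned under at least 1; hair shaft, EMT and fibroblast medians turned against PKO 1 alone. With 3 libraries a group and a median SE of 0.35, small differences could not be resolved.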

Other observations

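Genes near each other on a chromosome also differed together, a pattern seen in the data and given as values. Among 16505 tested genes with a place in the GRCm38 gene order, 7.05% had an unadjusted p under 0.05. In the window of 20 neighbouring tested genes on chromosome 13 from Mrps27 to Mrps36, 13 did, and all 13 were lower in WKO. No other of the 16103 overlapping windows held more, and 1 that overlaps it held as many. These genes have varied roles, among them Smn1 (assembly of spliceosomal particles) and Gtf2h2 and Cdk7 (both subunits of transcription factor TFIIH). Others are Rad17 (checkpoint clamp loading), Bdp1 (RNA polymerase III initiation) and Map1b (a microtubule protein). Gtf2h2 stood at 7.58, 9.94 and 7.32 CPM in WKO and 27.4, 15.0 and 15.8 CPM in PKO, and Bdp1 at 82.1, 78.5 and 95.7 CPM in WKO and 212, 135 and 122 CPM in PKO. PKO 1 was the highest of the 6 libraries for 11 of the 20.

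On chromosome 12, the window of 20 genes from Serpina3b to Gskip held 10 with an unadjusted p under 0.05, 8 of them higher in WKO and 2 lower. Serpina3f stood at 4.28, 4.004 and 4.23 CPM in WKO and 0, 1.23 and 0.955 CPM in PKO, and Serpina3g at 16.9, 13.9 and 13.7 CPM in WKO and 11.4, 8.95 and 4.32 CPM in PKO. Serpina3n, an acute phase member of the same cluster, stood at 1.26, 0.644 and 0.453 CPM in WKO and 0.778, 0.439 and 1.06 CPM in PKO, and Dicer1, next to the cluster, at 55.4, 57.6 and 64.5 CPM in WKO and 57.2, 62.4 and 56.1 CPM in PKO. Both overlapped between the groups.

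Of the 63 genes that DESeq2 called, 58 had no overlap between WKO and PKO libraries, beside 1920 of all 16627 genes tested with edgeR. The calls rest on the same libraries, so that count lends them no support. Of the 63, 16 were predicted, ribosomal or unnamed. H2-T22, a class Ib MHC gene, was among those higher in WKO, at 63.3, 68.2 and 91.6 CPM in WKO and 11.87, 12.7 and 6.48 CPM in PKO, beside 4.10, 3.14 and 3.599 CPM in WT. Ctse, an intracellular aspartic protease, was among those lower, at 1.12, 0.715 and 0.831 CPM in WKO and 12.6, 3.86 and 24.8 CPM in PKO.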
